A study of Mus musculus with 12 samples.

Results

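The expression of 9 transcription factors that mark forebrain regions was examined in astrocytes, astrocyte spheres and cell suspensions from 2 neurogenic regions of the mouse brain. The 9 genes were taken by name from the 55862 genes of the expression table: Emx1, Emx2, Lhx2 and Prox1 as the 4 dorsal factors, and Dlx1, Dlx2, Dlx5, Gsx2 and Nkx2-1 as the 5 ventral factors. There were 12 samples, 3 in each of 4 groups, and the labels give the strain C57BL/6 for all of them, while the methods name C57BL/6J for the mice of both NPC groups. ASTs were primary astrocytes from the cortex of newborn mice, grown as a monolayer with serum and sampled at 0 days of sphere culture. A-iSCs were ASTs after 5 days as spheres on agarose, with no gene transferred. P56-NPCs and P0-NPCs were the positive controls for neural precursor cells. P56-NPCs were dissociated from the subependymal zone, the layer along the lateral ventricle, of mice at postnatal day 56. P0-NPCs were dissociated from the hippocampus at postnatal day 0. Neither suspension was sorted as far as the methods state, and region, age and culture differ together between these groups, so their parts cannot be told apart.

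The embryonic telencephalon is divided into a dorsal part, the pallium, which forms cortex and hippocampus, and a ventral part, the subpallium, which forms the basal ganglia. Lhx2 is a selector of cortical identity, and Emx1 and Emx2 are homeobox genes that pattern the cortex and hippocampus. Prox1 is a homeobox gene of dentate granule neurons and is also known from interneurons and lymphatic endothelium. Gsx2 specifies the lateral ganglionic eminence, the source of striatal neurons, and Nkx2-1 the medial ganglionic eminence. The Dlx genes act after them in the formation of GABAergic neurons, and Dlx1 and Dlx2 lie side by side in the genome and are transcribed toward each other. Precursors of the adult subependymal zone keep such regional codes, and cultured astrocytes are known to retain part of the code of the region they come from.

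The 250 bases before the RefSeq start (GRCm38.p6) were read for the members as the DNA in which regulators of these genes would bind. RefSeq held such windows for 8 of the 9 members, all except Dlx5. The 4 windows whose RefSeq start equals the start of the gene in the expression table are printed here, 5′ to 3′ on the gene's strand. They belong to the member with the highest level in every group (Lhx2), the member called in none of the comparisons (Dlx2), the member with the fewest fragments in ASTs (Gsx2) and the member with its highest level in ASTs (Nkx2-1). Capitals mark matches on either strand to the TATA box letters TATAAA, the E-box CACGTG, the CCAAT box and TAATTA, the core that many homeodomain proteins bind. These motifs were chosen after the sequences had been seen.
Lhx2: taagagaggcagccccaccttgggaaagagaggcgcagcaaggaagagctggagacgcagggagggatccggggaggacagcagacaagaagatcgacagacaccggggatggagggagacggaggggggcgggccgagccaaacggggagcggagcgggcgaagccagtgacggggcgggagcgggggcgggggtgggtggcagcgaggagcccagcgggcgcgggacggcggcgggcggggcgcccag
Dlx2: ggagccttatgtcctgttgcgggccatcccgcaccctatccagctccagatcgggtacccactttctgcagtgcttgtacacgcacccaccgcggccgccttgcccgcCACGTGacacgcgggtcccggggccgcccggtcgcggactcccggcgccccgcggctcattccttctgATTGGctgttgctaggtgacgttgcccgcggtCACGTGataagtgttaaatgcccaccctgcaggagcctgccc
Gsx2: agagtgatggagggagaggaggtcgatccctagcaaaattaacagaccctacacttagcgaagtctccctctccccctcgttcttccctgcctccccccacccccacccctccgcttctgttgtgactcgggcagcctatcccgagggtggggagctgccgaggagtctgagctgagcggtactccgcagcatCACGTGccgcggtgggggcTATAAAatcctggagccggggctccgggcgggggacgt
Nkx2-1: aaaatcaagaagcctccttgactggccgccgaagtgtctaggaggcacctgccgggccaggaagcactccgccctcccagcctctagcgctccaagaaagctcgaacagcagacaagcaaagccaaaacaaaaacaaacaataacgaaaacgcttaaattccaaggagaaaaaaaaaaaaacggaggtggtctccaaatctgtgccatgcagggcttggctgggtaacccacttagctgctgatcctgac
The Lhx2 window (chr2:38339031-38339280, plus strand) held none of the motifs and was 72.8% G and C, against a median of 52.4% over the 32851 windows of the table. The Dlx2 window (chr2:71546755-71547004, minus strand) held the E-box 2 times, at offsets of -142 and -42 bases from the start, and the CCAAT box in reverse at -74. The Gsx2 window (chr5:75075351-75075600, plus strand) held the TATA box letters at -38 and the E-box at -57. The Nkx2-1 window (chr12:56536909-56537158, minus strand) held none of the motifs, with 50.8% G and C. Of all windows, 12.4% held the TATA box letters, 6.02% the E-box, 33.9% the CCAAT box and 4.84% TAATTA. The last was in none of the member windows read. A match is a description of these letters only.

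Levels are given in FPKM, fragments scaled by gene length and library size, so levels of different genes can be set side by side. The samples held 17077780 to 24452419 fragments on genes, and a floor of 3 fragments in a gene 1 kilobase long equalled 0.103 to 0.187 FPKM. Such floors and the counting intervals given here reflect counting error alone. All 8 astrocyte markers on the list reached a mean of 1 FPKM in each group, with sums of 143 to 161 FPKM in ASTs, 1211 to 2467 in A-iSCs, 2834 to 3072 in P56-NPCs and 238 to 303 in P0-NPCs. Most of the A-iSC sum was Gfap and Aldoc, with means of 970 and 406 FPKM. In P0-NPCs against ASTs the list was split, with 4 of the 8 called higher and 4 lower by limma (median log2 fold change 0.0046). Of all genes tested there, 38.1% were called higher and 40.9% lower. The P56-NPC samples stood apart by their oligodendrocyte markers, whose sum of 7851 to 8963 FPKM compared with at most 9.03 in any other sample, and by a mitochondrial share of 17.1% ± 0.55 (SD, n = 3) against means of 3.601 to 5.19% in the other groups. Choroid plexus markers varied from 731 to 3768 FPKM among the P0-NPC samples and from 1467 to 3145 among the P56-NPC samples. They summed to at most 4.71 FPKM in ASTs and 2.48 in A-iSCs. The 4 ependymal markers were also highest in P56-NPCs (221 to 286 FPKM, against 41.5 to 74.0 in the other samples). So were the 3 oligodendrocyte precursor markers (88.2 to 106 FPKM, against 3.48 to 19.4). The cells were measured in bulk, so fewer cells of a type and less RNA per cell cannot be told apart. The methods speak of 3 independent experiments for the study in general, but no source says of these sequenced samples whether the 3 of a group came from separate cultures or animals, and the p-values then measure only the spread between these samples.

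Each of the 4 dorsal factors had its highest level in P0-NPCs. Lhx2 (ENSMUSG00000000247, chr2:38339281-38369733) was the most abundant member in each group, at 31.8, 34.5 and 32.1 FPKM in the AST samples and 15.3, 13.4 and 16.3 FPKM in the A-iSC samples. The P56-NPC samples had 36.3, 34.0 and 39.0 FPKM of Lhx2 and the P0-NPC samples 88.8, 83.7 and 103 FPKM. The A-iSC samples were the lowest and the P0-NPC samples the highest, without overlap, while the AST and P56-NPC samples overlapped. Emx2 (ENSMUSG00000043969, chr19:59458372-59465357) stood at 4.83, 5.40 and 4.95 FPKM in ASTs, 7.77, 8.52 and 6.08 in A-iSCs, 13.7, 12.1 and 14.3 in P56-NPCs and 25.5, 22.5 and 31.5 in P0-NPCs. Its 4 groups formed a series from ASTs to P0-NPCs with no overlap between neighbours.

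Emx1 (ENSMUSG00000033726, chr6:85187438-85204462), a marker of the dorsal pallium, was at 0.191, 0.294 and 0.247 FPKM in ASTs, from 7, 13 and 10 fragments. It was at 1.70, 1.73 and 1.02 FPKM in A-iSCs, 2.14, 1.80 and 2.95 in P56-NPCs and 36.3, 28.3 and 34.7 in P0-NPCs. A gap separated the P0-NPC samples, all above 28 FPKM, from the other 9 samples, all below 3. Prox1 (ENSMUSG00000010175, chr1:190118035-190170714) was at 1.14, 1.25 and 1.18 FPKM in ASTs and 1.35, 1.54 and 1.95 in A-iSCs, and at 6.80, 7.58 and 6.03 in P56-NPCs and 11.3, 12.6 and 12.6 in P0-NPCs. Both NPC groups lay above both astrocyte groups in each sample.

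The ventral factors did not share 1 order of the groups. Dlx1 (ENSMUSG00000041911, chr2:71528113-71533981) was at 1.14, 1.06 and 0.968 FPKM in ASTs, 7.10, 5.97 and 4.41 in A-iSCs, 17.2, 17.5 and 15.2 in P56-NPCs and 15.1, 16.3 and 15.9 in P0-NPCs. The ASTs were lowest and the A-iSCs in between, and the NPC groups overlapped. Dlx2 (ENSMUSG00000023391, chr2:71543408-71546754), 9426 bases from Dlx1, was at 7.69, 7.36 and 8.05 FPKM in ASTs and 6.17, 7.59 and 5.80 in A-iSCs, and at 8.88, 13.9 and 6.40 in P56-NPCs and 9.65, 6.51 and 10.1 in P0-NPCs. All 4 groups overlapped with at least 1 other, and the widest spread was in P56-NPCs, where replicate 2 was highest.

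Dlx5 (ENSMUSG00000029755, chr6:6877805-6882085) was at 0.316, 0.501 and 0.309 FPKM in ASTs, 3.29, 1.97 and 0.874 in A-iSCs, 3.67, 4.35 and 3.22 in P56-NPCs and 3.26, 2.11 and 3.71 in P0-NPCs. The ASTs lay below the other groups, and the A-iSCs reached into the range of both NPC groups, with replicate 3 lowest. A-iSC replicate 3 was also the lowest of its group for Emx1, Emx2, Dlx1, Dlx2, Gsx2 and Nkx2-1, and the highest for Lhx2 and Prox1. Without it 7 members and not 6 were called in A-iSCs against ASTs, as Gsx2 then passed the filter (0.97, adjusted p = 0.00035 by limma).

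Gsx2 (ENSMUSG00000035946, chr5:75075601-75077893), whose window with the TATAAA match is printed above, had 1, 1 and 0 fragments in the AST samples, or 0.0358, 0.0296 and 0 FPKM. The A-iSC samples had 35, 38 and 38 fragments, or 1.04, 0.960 and 0.851 FPKM. In P56-NPCs it was at 1.21, 1.42 and 0.547 FPKM and in P0-NPCs at 0.551, 0.186 and 0.480. Of the groups, ASTs were at the floor and the A-iSCs were inside the range of P56-NPCs. Summed over the group, 111 fragments in A-iSCs against 2 in ASTs gave a ratio of 43.6 per library size, with an exact 95% counting interval of 11.8 to 365. The ratio to ASTs was 49.1 (13.2 to 411) for the 88 fragments of P56-NPCs and 18.2 (4.79 to 154) for the 52 fragments of P0-NPCs.

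Nkx2-1 (ENSMUSG00000001496, chr12:56531958-56536908) was the 1 member with its highest level in ASTs, at 2.85, 3.64 and 2.58 FPKM. It was at 1.33, 1.36 and 0.840 FPKM in A-iSCs, 1.70, 1.67 and 1.99 in P56-NPCs and 0.846, 1.02 and 1.29 in P0-NPCs. The AST samples lay above the other 9 samples, and the A-iSC and P0-NPC samples overlapped at the low end. The plot of FPKM by sample shows the 4 dorsal and 5 ventral factors together.

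**Figure D1:**
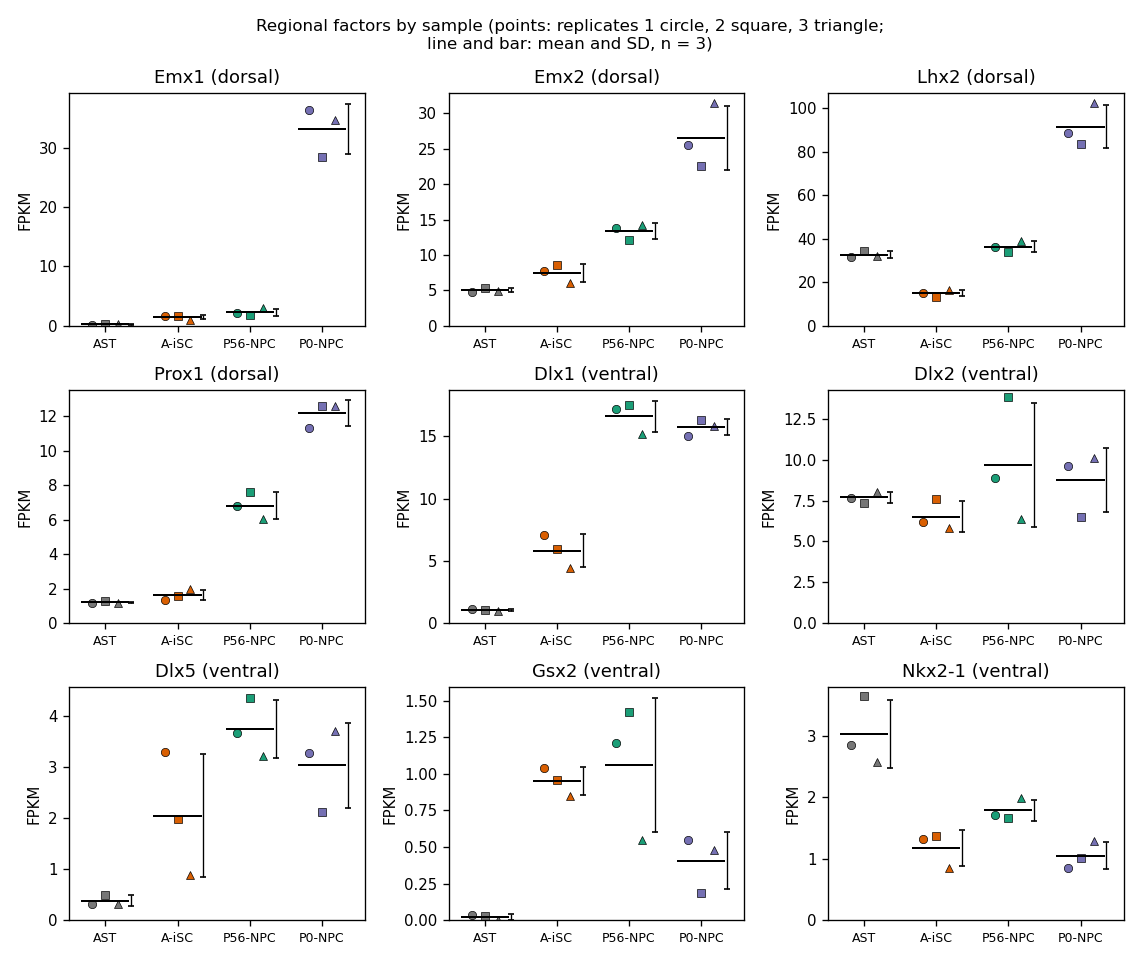
FPKM (linear axes from 0) of the 9 factors in the 4 groups, with each replicate as a point and the mean and SD (n = 3) as a line and a bar. The 4 dorsal factors peak in P0-NPCs, Nkx2-1 in ASTs, and the groups of Dlx2 overlap.

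The first comparison asked how the factors differed between A-iSCs and the ASTs they were made from. Dlx1, Dlx5, Emx1 and Emx2 were higher in A-iSCs, and Lhx2 and Nkx2-1 were lower. By limma on log2(FPKM + 1), Dlx1 differed by a log2 fold change of 1.71 (SE 0.16, adjusted p = 0.00012) and Dlx5 by 1.07 (SE 0.28, adjusted p = 0.015). Emx1 differed by 0.99 (SE 0.15, adjusted p = 0.0012 by limma), a scale that understates the change of low genes, since its mean rose 6.10-fold. Emx2 differed by 0.47 (SE 0.14, adjusted p = 0.022 by limma). This call was lost under 6 of 14 alternatives, among them the fits without AST replicate 1 or 3 or without A-iSC replicate 1 or 2, whose adjusted p by limma was 0.069 to 0.081.

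Lhx2 fell by 1.08 on the log2 scale (SE 0.12, adjusted p = 0.00022 by limma), so that its mean in ASTs was 2.19-fold that in A-iSCs. Nkx2-1 fell by 0.89 (SE 0.15, adjusted p = 0.0024 by limma). Lhx2 and Nkx2-1 thus differed in sign from the other called members of their part of the telencephalon. Prox1 did not pass the test (log2 fold change 0.25, 95% interval -0.04 to 0.53, adjusted p = 0.13 by limma), although its groups did not overlap, and with scaling by total fragments it passed (0.38, adjusted p = 0.040), although relative to the median of all genes it then stood at 0.25 and not 0.31. Dlx2 did not pass either, at -0.22 (95% interval -0.50 to 0.07, adjusted p = 0.17 by limma). Gsx2 stayed below the filter of a mean of 1 FPKM in this comparison, and without the filter it differed by 0.93 (adjusted p = 0.00031 by limma). In all, 6 of 8 members tested were called, with 4 higher and 2 lower, against 54.8% of the 14087 genes tested (25.2% higher and 29.6% lower). Emx1 and Dlx5 passed the filter through their A-iSC level only, so that their direction was set by it. This share of the members is not far from the background, and the median log2 fold change was 0.36 over the members tested and -0.06 over all genes tested.

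**Figure D2:**
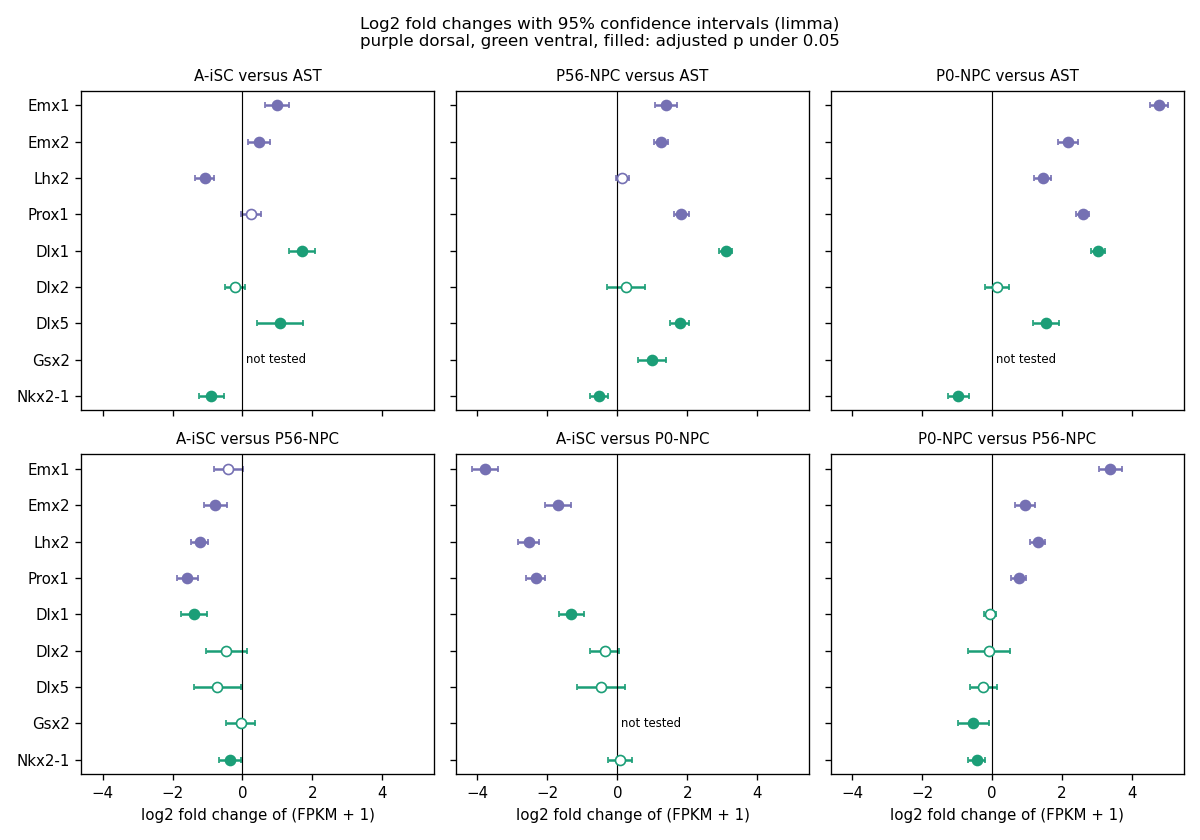
Log2 fold changes of (FPKM + 1) with 95% confidence intervals for the 9 factors in 6 comparisons, filled where the limma adjusted p is under 0.05. Dorsal factors are to the right of 0 in both panels of P0-NPCs as the first group, and Dlx2 is open in each panel. Its sign turned in 3 of the panels with scaling by total fragments, as did that of Lhx2 in P56-NPCs against ASTs, Gsx2 in A-iSCs against P56-NPCs, and Dlx1 and Dlx5 in P0-NPCs against P56-NPCs.

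The NPC groups were then each compared with the same AST samples, so these comparisons share their controls. P56-NPCs had more Emx1, Emx2, Prox1, Dlx1, Dlx5 and Gsx2 than ASTs and less Nkx2-1. The log2 fold change was 3.10 for Dlx1 (SE 0.08, adjusted p = 9.6e-08), 1.83 for Prox1 (SE 0.09, adjusted p = 1.7e-06) and 1.24 for Emx2 (SE 0.08, adjusted p = 8.5e-06), all by limma. Nkx2-1 fell by 0.52 (SE 0.11, adjusted p = 0.0041 by limma). Lhx2 at 0.15 (95% interval -0.04 to 0.33) and Dlx2 at 0.24 (95% interval -0.31 to 0.79) did not pass, and both turned negative with scaling by total fragments (-0.19 and -0.06). Lhx2 passed without AST replicate 2 (0.18, adjusted p = 0.040 by limma) and Dlx2 without P56-NPC replicate 3 (0.48, adjusted p = 0.049). With 9 members tested, 6 were called higher and 1 lower, against 78.9% of all 15146 genes tested (39.1% higher and 39.8% lower). Emx1, Dlx5 and Gsx2 passed the filter through their P56-NPC level only.

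P0-NPCs had more of all 4 dorsal factors than ASTs, by log2 fold changes of 4.77 for Emx1 (SE 0.11, adjusted p = 2.4e-08), 2.59 for Prox1 (SE 0.08, adjusted p = 9.8e-08), 2.17 for Emx2 (SE 0.12, adjusted p = 1.7e-06) and 1.45 for Lhx2 (SE 0.10, adjusted p = 5.9e-06), all by limma. The mean of Emx1 was 136-fold that in ASTs. Among the ventral factors, Dlx1 (3.03) and Dlx5 (1.53) were higher, Nkx2-1 was lower (-0.97), and Dlx2 did not pass (0.15, 95% interval -0.20 to 0.49). Without P0-NPC replicate 2, the lowest of its group, Dlx2 passed at 0.32 (adjusted p = 0.014 by limma), as it did with scaling by total fragments (0.41, adjusted p = 0.039). That scaling moved the median of all genes to 0.21, and relative to the median Dlx2 was at 0.20, against 0.21 as deposited. Gsx2 was below the filter. Of 8 members tested, 6 were called higher and 1 lower, against 79.0% of the 15010 genes tested (38.1% higher and 40.9% lower), with Emx1 and Dlx5 tested through their P0-NPC level only, so the number of calls in both NPC groups was close to the background.

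A-iSCs were also compared with each NPC group, which shows where the spheres stood relative to the positive controls. None of the members that passed the filter was called higher in A-iSCs by limma, none had an unadjusted p under 0.05 in that direction, and limma-voom on fragment counts recovered from the FPKM also called 0 higher in both comparisons. Gsx2, below the filter in A-iSCs against P0-NPCs, was called higher there under the 3 alternatives in which it was tested, whose values are given with that comparison. Compared with P56-NPCs, the log2 fold change was -1.58 for Prox1 (SE 0.13, adjusted p = 4.3e-05), -1.38 for Dlx1 (SE 0.16, adjusted p = 0.00026), -1.23 for Lhx2 (SE 0.11, adjusted p = 7.0e-05) and -0.77 for Emx2 (SE 0.14, adjusted p = 0.0022), all by limma. Nkx2-1 passed narrowly, at -0.36 (adjusted p = 0.046 by limma), and lost its call under 13 of 14 alternatives, the removal of any 1 of the 6 samples among them (adjusted p 0.053 to 0.13). Emx1 (-0.40, 95% interval -0.82 to 0.01), Dlx2 (-0.46, -1.04 to 0.13), Dlx5 (-0.71, -1.39 to -0.04) and Gsx2 (-0.05, -0.47 to 0.37) did not pass after adjustment. Dlx5 passed at -1.001 without A-iSC replicate 1 (adjusted p = 0.0099 by limma), with all 4 groups in the model (adjusted p = 0.025) and with limma-voom (-1.12, adjusted p = 0.046). Emx1 passed with all 4 groups in the model (adjusted p = 0.035 by limma), and Dlx2 at -0.70 without P56-NPC replicate 3 (adjusted p = 0.034). Of 9 members tested, 5 were called lower and 0 higher. Of all 15044 genes tested, 61.0% were called, 30.1% higher and 30.9% lower. With scaling by total fragments 3 members were called, Emx2 (-0.26) and Nkx2-1 (-0.03) having lost their call, and the median gene then moved to 0.49.

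Compared with P0-NPCs, the 4 dorsal factors and Dlx1 were lower in A-iSCs. The log2 fold change was -3.78 for Emx1 (SE 0.16), -2.53 for Lhx2 (SE 0.13), -2.34 for Prox1 (SE 0.12), -1.70 for Emx2 (SE 0.16) and -1.31 for Dlx1 (SE 0.16), and the highest adjusted p of these by limma was 0.00018. Dlx5 (-0.46, 95% interval -1.16 to 0.23), Dlx2 (-0.36, -0.77 to 0.05) and Nkx2-1 (0.08, -0.26 to 0.42) did not pass. Dlx5 passed without A-iSC replicate 1 (-0.75, adjusted p = 0.038 by limma) and Dlx2 without P0-NPC replicate 2 (-0.54, adjusted p = 0.021). Gsx2 was below the filter, and without it was higher in A-iSCs by 0.48 (adjusted p = 0.032 by limma). It passed the filter and was called higher with scaling by total fragments (0.49, adjusted p = 0.0199 by limma) and without A-iSC replicate 3 (0.52, adjusted p = 0.015). Of 8 members tested, 5 were called lower and 0 higher. Of all 15170 genes tested, 65.1% were called, 31.5% higher and 33.6% lower.

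P0-NPCs against P56-NPCs set hippocampus beside subependymal zone, at different ages. All 4 dorsal factors were higher in the hippocampal samples, by log2 fold changes of 3.38 for Emx1 (SE 0.14, adjusted p = 5.9e-07), 1.31 for Lhx2 (SE 0.09, adjusted p = 7.4e-06), 0.93 for Emx2 (SE 0.12, adjusted p = 0.00024) and 0.76 for Prox1 (SE 0.09, adjusted p = 0.00012), all by limma. No ventral factor was called higher. Nkx2-1 (-0.45, SE 0.11, adjusted p = 0.0061) and Gsx2 (-0.54, SE 0.19, adjusted p = 0.034) were called lower by limma. Gsx2 passed the filter through P56-NPCs only. Its groups overlapped, its call was lost without P0-NPC replicate 2 (adjusted p = 0.10) or 3 (0.060), and that of Nkx2-1 was lost with scaling by total fragments (-0.08). Relative to the median of all genes, Nkx2-1 was then at -0.61, against -0.44 as deposited.

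Dlx1 (-0.07, 95% interval -0.24 to 0.10), Dlx2 (-0.10, -0.70 to 0.51) and Dlx5 (-0.25, -0.64 to 0.13) did not pass in P0-NPCs against P56-NPCs. With scaling by total fragments these 3 values turned to 0.52, 0.47 and 0.23, and Dlx1 then passed (adjusted p = 0.00018 by limma), but the median of all genes moved to 0.53 with it. Relative to that median, Dlx1 stood at -0.0025, and the 4 dorsal factors remained called and higher. Of 9 members tested, 4 were called higher and 2 lower, against 78.8% of the 15394 genes tested (39.0% higher and 39.7% lower).

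Ratios between members within a sample do not depend on the scaling between samples. The ratio of Dlx1 to Dlx2 was 0.137 ± 0.015 (SD, n = 3) in ASTs, 0.899 ± 0.218 in A-iSCs, 1.86 ± 0.56 in P56-NPCs and 1.88 ± 0.55 in P0-NPCs. It ranged from 0.1202 to 0.148 in ASTs and from 0.760 to 1.15 in A-iSCs, and the NPC samples lay above both. The ratio of Emx2 to Emx1 was 21.2 ± 3.6 in ASTs, 5.13 ± 0.71 in A-iSCs, 6.00 ± 1.01 in P56-NPCs and 0.802 ± 0.103 in P0-NPCs, where Emx1 was the higher of the pair in each sample. These ratios are given as a description with no test, as 3 samples against 3 cannot give an exact permutation p under 0.1.

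The 4 dorsal factors summed to 39.3 ± 1.9 FPKM in ASTs (SD, n = 3), 25.5 ± 0.5 in A-iSCs, 58.9 ± 3.4 in P56-NPCs and 163 ± 17 in P0-NPCs. The 5 ventral factors summed to 12.2 ± 0.4, 16.5 ± 3.3, 32.9 ± 5.7 and 29.0 ± 2.7 FPKM in the same order. Dorsal over ventral was 3.23 ± 0.07 in ASTs, 1.59 ± 0.34 in A-iSCs, 1.84 ± 0.42 in P56-NPCs and 5.64 ± 0.13 in P0-NPCs, so that the A-iSC and P56-NPC samples overlapped and lay below the others. Lhx2 made up 83.5% of the dorsal sum in ASTs and 58.7% in A-iSCs. With Lhx2 left out, the ratio was 0.533 ± 0.020 in ASTs, 0.647 ± 0.069 in A-iSCs and 0.700 ± 0.149 in P56-NPCs and 2.47 ± 0.04 in P0-NPCs. The ASTs were then the lowest of the first 3 groups and not the highest, so their place in this ratio turned on 1 gene.

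**Figure D3:**
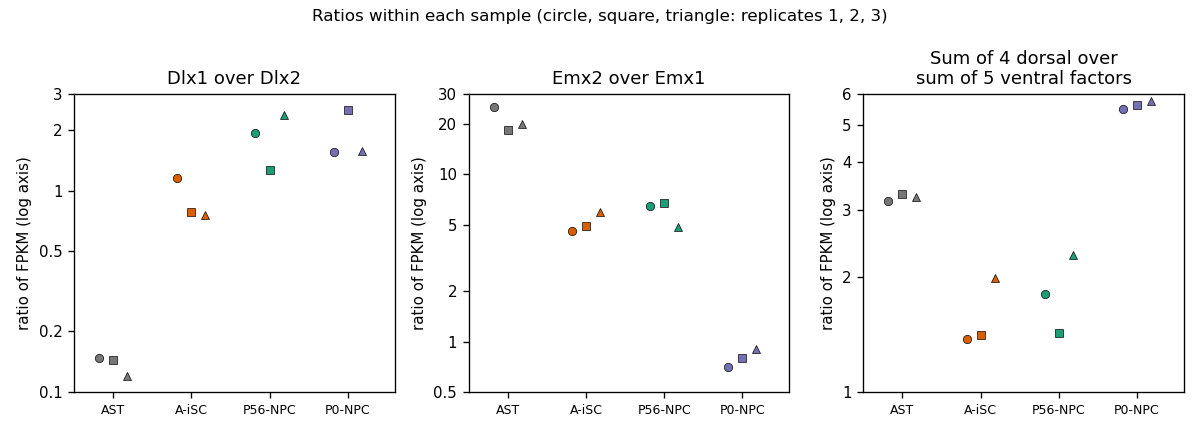
Ratios of FPKM within each sample (log axes) for Dlx1 over Dlx2, Emx2 over Emx1, and the sum of the 4 dorsal over the sum of the 5 ventral factors, with replicates as points. ASTs are lowest for Dlx1 over Dlx2 and highest for Emx2 over Emx1, and P0-NPCs have the highest dorsal over ventral ratio.

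Several members share their place with other genes. Dlx1as, a long noncoding RNA on the opposite strand, covers all 5869 bases of Dlx1, and its mean was 0.229 FPKM in ASTs, 0.440 in A-iSCs, 1.56 in P56-NPCs and 2.73 in P0-NPCs. Because strand use is not stated, reads of Dlx1 and Dlx1as cannot be told apart, and the table lists Dlx1as at less than Dlx1 in each group. Emx2os overlaps Emx2 by 264 bases and rose from 0.370 FPKM in ASTs to 2.29 in P0-NPCs (log2 fold change 1.26, adjusted p = 3.7e-06 by limma), tested through its P0-NPC level only. Prox1os, which overlaps Prox1 by 419 bases, was at 0.432 FPKM in ASTs, 0.438 in A-iSCs, 4.94 in P56-NPCs and 5.87 in P0-NPCs. Antisense genes also overlap Lhx2 (Gm27197 and Gm13584) and Nkx2-1 (Gm26973), the last at no more than 0.393 FPKM in any group mean.

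Dlx5 lies 9236 bases from Dlx6, its partner gene, and 6212 bases from the noncoding Dlx6os1. Dlx6os1 was at 0.0346, 0.0667 and 0.0729 FPKM in ASTs and at 2.004, 1.89 and 1.99 in A-iSCs (log2 fold change 1.48, adjusted p = 3.0e-05 by limma), and was tested through its A-iSC level only, so its direction was set by the filter. It was at 4.69, 5.99 and 3.46 FPKM in P56-NPCs and 2.26, 2.34 and 1.64 in P0-NPCs. The A-iSC samples differed among themselves less for Dlx6os1 than for Dlx5. Dlx6 had means of 0.0575 FPKM in ASTs, 0.467 in A-iSCs, 2.17 in P56-NPCs and 0.550 in P0-NPCs. Dlx6 and Dlx6os1 were lower in P0-NPCs than in P56-NPCs (-1.03 and -0.88, adjusted p = 2.1e-05 and 0.0020 by limma), although Dlx6 was tested through its P56-NPC level only.

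**Figure D4:**
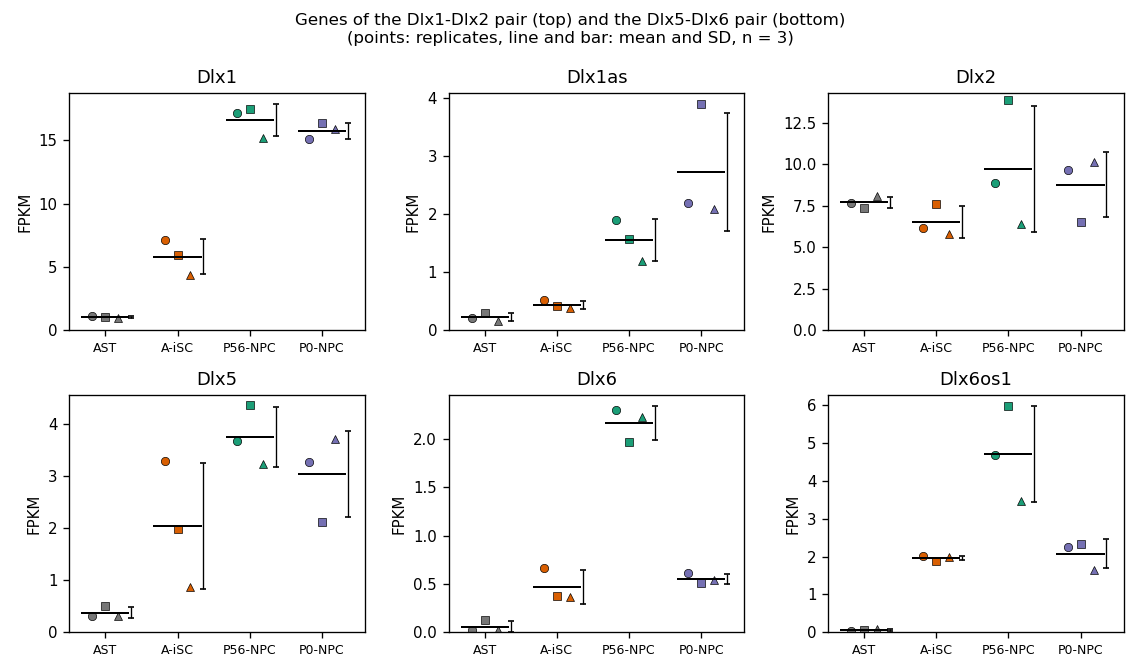
FPKM (linear axes from 0) by sample for Dlx1, Dlx1as and Dlx2 in the top row and Dlx5, Dlx6 and Dlx6os1 in the bottom row, with replicates as points and mean and SD (n = 3). Dlx1 and Dlx2 differ in their order of the groups, and Dlx6 and Dlx6os1 are highest in P56-NPCs.

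Other factors of the same regions were counted from lists. A gene that passed the filter through 1 group only, the one where it was high, had its direction set by the filter, so each count is followed by that over the genes at 1 FPKM or more in both groups. Of 21 other dorsal factors, 20 were tested in P0-NPCs against P56-NPCs, with 19 called higher and 0 lower (median 1.85, against -0.01 over all genes tested, of which 39.0% were called higher). Neurod1 (0.140 to 66.1 FPKM) and Tbr1 (0.706 to 18.3 FPKM), factors of newborn dentate and cortical neurons, led this list. Of the 20 tested, 10 passed through P0-NPCs only, and of the 10 at that level in both groups 9 were higher. In P0-NPCs against ASTs 18 of 20 were called higher and 0 lower (median 2.16), against 38.1% of all genes higher and 40.9% lower. A-iSCs against P0-NPCs had 0 of 20 higher and 17 lower, against 31.5% and 33.6% of all genes. In each of these comparisons 12 of the 20 were tested through their P0-NPC level only. Of the 8 that reached 1 FPKM in both groups, 6 were higher in P0-NPCs than in ASTs and 5 were lower in A-iSCs than in P0-NPCs. In the direction of these 3 zeros, limma gave 0, 0 and 1 genes with an unadjusted p under 0.05, and limma-voom called 0 in each. In P56-NPCs against ASTs 3 of 11 tested were higher and 6 lower (median -0.29), with 39.1% and 39.8% of all genes, and of the 7 at 1 FPKM in both groups 0 were higher and 5 lower by limma (1 higher at an unadjusted p under 0.05, 0 by limma-voom). Of the 4 dorsal members Emx1, Emx2 and Prox1 were higher there. In A-iSCs against P56-NPCs 5 of 11 were higher and 3 lower (median 0.20), with 30.1% and 30.9% of all genes, and of the 7 in both groups 4 were higher and 0 lower by limma (0 lower at an unadjusted p under 0.05 and by limma-voom). Emx2, Lhx2 and Prox1 were lower there.

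In A-iSCs against ASTs, 9 of the 21 other dorsal factors were tested, with 4 called higher and 3 lower (median 0.16), against 25.2% and 29.6% of all genes and a median of -0.06. Of the 7 at 1 FPKM in both groups, 3 were higher and 2 lower. The other 2 were Fezf2, which passed through A-iSCs only, and Bhlhe22, which passed through ASTs only. Fezf2, a factor of forebrain patterning and deep-layer neurons, was higher at 5.57 against 0.673 FPKM (log2 fold change 1.96, adjusted p = 5.9e-05 by limma). Bhlhe22, a factor of dorsal telencephalic neurons, was lower at 0.178 against 2.63 FPKM (-1.62, adjusted p = 2.5e-05). Of 18 other ventral factors, 9 were tested, with 5 higher and 2 lower (median 0.36), against the same shares of all genes. Of the 7 in both groups, 3 were higher and 2 lower. Gsx1, the close relative of Gsx2, which passed through A-iSCs only, was higher at 2.12 against 0.0927 FPKM (1.49, adjusted p = 0.00032 by limma). Six3 was lower at 3.95 against 11.1 FPKM (-1.29, adjusted p = 4.3e-05 by limma), and so was Zfp503 at 4.07 against 9.76 FPKM (-1.09, adjusted p = 0.00058).

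The ventral list in P0-NPCs against P56-NPCs had 5 of 12 tested higher and 7 lower (median -0.62), against 39.0% and 39.7% of all genes, and of the 8 in both groups 4 were higher and 4 lower. Compared with ASTs, 7 of 11 were higher and 2 lower in P56-NPCs (median 1.13, with 39.1% and 39.8% of all genes), and of the 7 in both groups 3 were higher and 2 lower. In P0-NPCs 6 of 11 were higher and 3 lower (median 0.42, with 38.1% and 40.9% of all genes), and of the 5 in both groups 2 were higher and 1 lower. Compared with P56-NPCs, 3 of 12 were higher and 7 lower in A-iSCs (median -0.69, with 30.1% and 30.9% of all genes), and of the 8 in both groups 2 were higher and 4 lower. Compared with P0-NPCs, 5 of 12 were higher and 3 lower in A-iSCs (median 0.23, with 31.5% and 33.6% of all genes), and of the 6 in both groups 2 were higher and 0 lower by limma (1 lower at an unadjusted p under 0.05, 0 by limma-voom). Nkx6-2 stood at 62.4 FPKM in P56-NPCs against 0.0247 in P0-NPCs, and Lhx6, a factor of interneurons from the medial ganglionic eminence, at 0.655 against 13.0 FPKM. Each of these 2 genes passed through 1 group only. Nkx6-2 is also known from oligodendrocytes, whose markers were high in P56-NPCs, and their part in its level was not tested.

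Factors of midbrain, hindbrain and spinal cord were low but not absent in ASTs. Their 21 genes summed to 11.1 to 12.3 FPKM in AST samples, 5.10 to 7.06 in A-iSCs, 2.70 to 2.82 in P56-NPCs and 0.399 to 0.543 in P0-NPCs, and 16 of the 21 had their highest mean in ASTs, while 1 was at 0 in all samples. In A-iSCs against ASTs 5 were tested, with a median of -0.93, beside 29.6% of all genes lower and 25.2% higher. Of the 5, 4 were lower, among them 2 tested through their AST level only, En1 (0.343 against 1.61 FPKM) and Pax2 (0.0547 against 1.24 FPKM), and Hoxa2, tested through its A-iSC level only, was higher (1.68 against 0.521 FPKM, log2 fold change 0.80, adjusted p = 0.0049 by limma). Of 8 hypothalamic factors only Nkx2-2 passed the filter. It was at 2.23 FPKM in ASTs, 2.87 in A-iSCs, 7.14 in P56-NPCs and 0.395 in P0-NPCs.

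Markers of cell types that use these factors moved with some results. The 3 GABAergic neuron markers, cells in which Dlx genes are active, summed to 0.226 to 0.261 FPKM in ASTs, 1.74 to 3.77 in A-iSCs, 46.4 to 51.4 in P56-NPCs and 13.3 to 15.9 in P0-NPCs, and none was at 0 in any group mean. The 8 striatal projection neuron markers summed to 4.55 to 5.47, 10.004 to 14.5, 52.5 to 93.6 and 14.0 to 16.4 FPKM in the same order. P56-NPC replicate 2, the highest sample for Dlx2, was also highest for the striatal marker Penk (16.4, against 9.91 and 2.71 FPKM). Without this sample Dlx2 in P56-NPCs against ASTs was -0.02.

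For Prox1, the 6 dentate granule neuron markers summed to 0.493 to 0.740 FPKM in ASTs, 1.40 to 2.12 in A-iSCs, 18.6 to 19.9 in P56-NPCs and 2.69 to 2.93 in P0-NPCs, where Prox1 itself was highest. The 4 lymphatic endothelial markers summed to 1.36 to 1.87, 0.102 to 0.209, 0.312 to 1.75 and 7.01 to 11.7 FPKM. Only 1 of the 4 reached a mean of 1 FPKM in P0-NPCs. Of the 2 tested in P0-NPCs against ASTs, Lyve1 was called higher (3.15) and Flt4 lower (-0.50) by limma, beside 38.1% and 40.9% of all genes. Each of these 2 passed the filter through 1 group only, which set its direction. For the dorsal factors, the 5 neuroblast markers summed to 822 to 1033 FPKM in P0-NPCs, against 127 to 153 in ASTs, 171 to 259 in A-iSCs and 85.5 to 90.2 in P56-NPCs. The lower sum of P56-NPCs than of ASTs did not hold for each marker. There limma called 2 of the 5 higher (Dcx and Igfbpl1) and 1 lower (Cd24a). The median log2 fold change was -0.13, beside 39.1% of all genes higher and 39.8% lower. Of the 5 markers, 4 reached 1 FPKM in ASTs. The other passed through P56-NPCs only, so its direction was set by the filter. The 5 glutamatergic neuron markers summed to 0.811 to 0.838 FPKM in ASTs, 0.652 to 0.699 in A-iSCs, 385 to 435 in P56-NPCs and 165 to 204 in P0-NPCs, with 3 of them at 0 in ASTs and 1 in A-iSCs. Most of the P56-NPC sum was Camk2a, with a mean of 391 FPKM against 6.40 in P0-NPCs. In P0-NPCs against P56-NPCs, 3 of the 5 were called higher and 2 lower (median 1.96), beside 39.0% and 39.7% of all genes. The 4 fibroblast and pericyte markers summed to 140 to 190 FPKM in ASTs, 5.35 to 7.14 in A-iSCs, 7.62 to 10.4 in P56-NPCs and 63.4 to 68.9 in P0-NPCs. Most of the AST sum was Col1a1, a collagen gene, with a mean of 158 FPKM. Pdgfrb was at 11.1 FPKM in ASTs, 2.79 in A-iSCs, 5.42 in P56-NPCs and 12.2 in P0-NPCs. Dcn was at 0.248 FPKM in ASTs and 11.96 in P0-NPCs, and Lum at 0.0374 and 7.42 FPKM.

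Large shifts in other lists also went with the comparisons. Compared with ASTs, A-iSCs had higher levels of all 5 microglia markers, with a median log2 fold change of 2.92 and sums of 193 to 246 against 20.1 to 23.8 FPKM, beside 231 to 240 in P56-NPCs and 23.0 to 31.2 in P0-NPCs. Of all genes tested there, 25.2% were called higher and 29.6% lower. Of the 5 markers, 4 reached 1 FPKM in ASTs, and the other passed through A-iSCs only, so its direction was set by the filter. The 3 proliferation markers were lower in A-iSCs than in ASTs (median -1.96, with the same shares of all genes), with sums of 10.7 to 13.6 against 60.5 to 63.2 FPKM, beside 4.35 to 7.01 in P56-NPCs and 26.7 to 34.3 in P0-NPCs. The 4 endothelial markers summed to 66.8 to 67.4 FPKM in P0-NPCs and to no more than 3.59 in any other sample. The part of these cells in the levels of the 9 factors was not tested.

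The genes whose pattern over the 12 samples was most like that of each member, by Pearson's r of log2(FPKM + 1) among 13659 protein-coding genes, are given as a description, since the samples fall into 4 groups that set most of each correlation. They were Bcl11a for Emx1 (r = 0.9945), Cdkn1c for Emx2 (0.9953), Fam110b and Bhlhe22 for Lhx2 (0.9899 and 0.983) and Kcnq3 for Prox1 (0.998). They were Rnf208 and Tagln3 for Dlx1 (both 0.994), Sctr for Dlx5 (0.980), Nim1k for Gsx2 (0.940) and Prelid3b for Nkx2-1 (0.979). For Dlx2 no gene exceeded the 0.793 of Spsb4, and Penk followed at 0.744.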

How the data were processed

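RNA of 12 mouse samples in 4 groups of 3 was analysed. Per the labels, total RNA went into NEBNext Ultra libraries, which were read in pairs on an Illumina HiSeq. The aligner and annotation release are not given in the study's methods. The submitters' processing notes name Bowtie 0.12.2 and mm8, but 54899 of 55154 gene identifiers shared with GENCODE M21 lay at the same position, so coordinates are on GRCm38.

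The authors deposited a table of FPKM, fragments scaled by gene length and library size, with 1 column per sample. Each value times gene length was a whole multiple of 1 step per sample (100.0% of values within 0.05), and the steps gave library sizes of 0.744 to 1.22 times the fragments on genes, so the values carry a scaling between samples. The kit does not mark strand as far as the sources state, so reads of a gene and of an antisense gene over it cannot be told apart.

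Groups were compared 2 at a time, as in the study, with limma 3.58.1 in R 4.3.3 (lmFit and eBayes with a trend) on log2(FPKM + 1). A gene entered a test if either group mean reached 1 FPKM, and was called where its p, Benjamini-Hochberg adjusted over the whole test, was under 0.05. DESeq2, which the study's methods name, was not run because the table holds no counts as deposited, and limma-voom on the recovered fragments was an alternative. The script was tested on simulated data. Ratios, correlations and promoter searches used Python 3.11.15 with numpy 2.4.6, pandas 2.3.3 and scipy 1.17.1, and figures matplotlib 3.10.9.

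The members and lists were chosen with earlier results of these data known. Every member is named. Of other genes, the text names up to 2 highest and 2 lowest called genes per list and comparison, marker genes, genes within 100 kb of a member, and the 3 protein-coding genes most like a member. Some genes that this rule would name are not reported here. Whether the replicate numbers pair samples is not stated and could not be settled with 3 samples per group, so they stayed out of the model. Alternatives were a pseudocount of 0.1, no filter, other scalings, all 4 groups in the model, the replicate block, limma-voom, an adjusted p under 0.01 and leaving out each sample.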

Additional observations from a re-analysis of the deposited data

How the results depend on the processing

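Each member was read under 14 alternatives per comparison where it passed the filter, 706 readings in all. For 1 of the 14, the adjusted p under 0.01, the main fit was read at a stricter threshold, so its direction could not turn. Of the 706, 655 kept the direction and the call, 27 kept the direction and lost the call, 13 kept the direction and gained a call, and 11 turned the direction, all 11 for differences that had not been called. The number of members called stayed within 1.5 times its value under each alternative and comparison except A-iSCs against P56-NPCs with scaling by total fragments, where it was 3 and not 5.

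Scaling by total fragments in place of the deposited scaling moved the median log2 fold change of all genes to 0.13 in A-iSCs against ASTs, -0.34 in P56-NPCs and 0.21 in P0-NPCs against ASTs, 0.49 in A-iSCs against P56-NPCs, -0.09 in A-iSCs against P0-NPCs and 0.53 in P0-NPCs against P56-NPCs. Upper-quartile scaling moved it to -0.17, -0.17 and -0.16 in the 3 comparisons with ASTs. The genes higher and lower were then 3026 and 4954 in A-iSCs, 5360 and 6808 in P56-NPCs and 5350 and 6666 in P0-NPCs. With total fragments the genes higher and lower were 4563 and 2989 (3550 and 4165 as deposited) in A-iSCs against ASTs, 4569 and 7559 (5924 and 6032) in P56-NPCs and 7106 and 4860 (5713 and 6146) in P0-NPCs against ASTs, 8329 and 2857 (4532 and 4643) in A-iSCs against P56-NPCs, and 9428 and 3438 (6011 and 6115) in P0-NPCs against P56-NPCs.

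The differences that turned with total fragments were those of Lhx2 (-0.19) and Dlx2 (-0.063) in P56-NPCs against ASTs, Dlx2 (0.035) and Gsx2 (0.21) in A-iSCs against P56-NPCs, and Dlx1 (0.52), Dlx2 (0.47) and Dlx5 (0.23) in P0-NPCs against P56-NPCs. With upper-quartile scaling Lhx2 in P56-NPCs against ASTs was -0.0042. Relative to the median of all genes under total fragments, Lhx2 (0.15) and Dlx2 (0.27) in P56-NPCs against ASTs, and Dlx2 (-0.46) and Gsx2 (-0.28) in A-iSCs against P56-NPCs, kept the sign they had as deposited. With 1 sample left out, Dlx2 ranged from -0.024 (without P56-NPC replicate 2) to 0.48 (without P56-NPC replicate 3) in P56-NPCs against ASTs, and from -0.33 (without P56-NPC replicate 3) to 0.17 (without P56-NPC replicate 2) in P0-NPCs against P56-NPCs, where it was 0.082 without P0-NPC replicate 2. The cause of these turns was not tested.

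Samples with the same replicate number did not deviate together in a uniform way (residual correlations of -0.38, 0.34 and 0.43 between ASTs and A-iSCs, and -0.14 to 0.10 between the other groups). With the replicate number as a block, Dlx5 in A-iSCs against P56-NPCs passed (adjusted p = 0.041 by limma), Nkx2-1 there did not (0.10), nor did Gsx2 in P0-NPCs against P56-NPCs (0.052), and no other call of a member changed. For Gsx2 and Nkx2-1, levels near 1 FPKM and 3 samples per group limit what could be detected.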

Other observations

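Among the 9 factors, the pairs most alike over the 12 samples were Emx2 and Prox1 (Pearson's r of log2(FPKM + 1) 0.953), Emx1 and Emx2 (0.944) and Dlx1 and Dlx5 (0.939), whereas the adjacent Dlx1 and Dlx2 gave 0.333. Nkx2-1 correlated below 0 with 7 of the 8 other members and at 0.033 with Dlx2. These values describe 12 samples that fall into 4 groups and carry no test.

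Genes beside a member did not always follow its order of the groups. Sfxn5, 8586 bases from Emx1, stood at 1.92 FPKM in ASTs, 24.8 in A-iSCs, 57.7 in P56-NPCs and 6.66 in P0-NPCs, with its lowest NPC level in the group where Emx1 was highest. Metap1d, 2918 bases from Dlx1, had its highest mean in A-iSCs (10.1 FPKM, against 2.68 in ASTs, 6.79 in P56-NPCs and 8.47 in P0-NPCs). Its A-iSC samples were at 13.0, 12.2 and 5.16 FPKM. A-iSCs were not called for it against P56-NPCs (adjusted p = 0.26 by limma) or P0-NPCs (0.69). Pdgfra, the receptor that marks oligodendrocyte precursors, lies 74398 bases from Gsx2 and was at 0.373 FPKM in ASTs, 5.502 in A-iSCs, 19.1 in P56-NPCs and 8.34 in P0-NPCs. Nkx2-9, 74480 bases from Nkx2-1, was at 0.874 FPKM in ASTs and 1.67 in P56-NPCs and had no fragment in A-iSCs or P0-NPCs.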
